A study of Mus musculus with 9 samples.

Results

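The insulin-like growth factor (IGF) genes described here are 9 genes taken by symbol from the 54532 listed in the deposited count table: the ligands Igf1 and Igf2, the receptor Igf1r, and the binding proteins Igfbp2, Igfbp3, Igfbp4, Igfbp5, Igfbp6 and Igfbp7. Of the 9, 6 had enough reads to be tested among 14004 genes, and Igf2, Igfbp2 and Igfbp3 did not. Messenger RNA had been sequenced from ST2, an established stromal cell line of mouse bone marrow that can be driven toward osteoblasts, after 72 h in 3 conditions with 3 libraries each. Cells received vehicle (Veh), 50 ng/ml recombinant human Wnt3a (rhWnt3a), or rhWnt3a together with 20 µM OSMI (rhWnt3aOSMI), an inhibitor of OGT, the enzyme that attaches single O-GlcNAc sugars to nuclear and cytoplasmic proteins. The third group carries both agents by its sample titles and by the study's account of its results. Its treatment label names OSMI alone, and the study's methods list the agents separately. It was taken as given both agents, which leaves no group with OSMI alone. An effect of OSMI by itself therefore cannot be told apart from one on cells given rhWnt3a. The study speaks of its RNA-Seq libraries as biological replicates, while the labels only number them and do not say how the cultures were kept apart.

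IGF1 and IGF2 are secreted growth factors that act through IGF1R, a receptor tyrosine kinase that signals by way of insulin receptor substrates, PI3-kinase and AKT. The binding proteins hold most of the ligand outside the cell, and proteases that cut them set it free. In bone, osteoblasts and their precursors make IGF1 themselves and deposit IGFs in the matrix, where IGFBP5 is a major binding protein, while IGFBP4 is known mainly as an inhibitor of IGF action that the protease PAPP-A removes.

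Total counts ran from 16135898 to 17583945 a library. In each group 1 library lay apart from the other two (Veh 3, rhWnt3a 2 and rhWnt3aOSMI 3), with a mean squared log2 difference from them of 0.373 to 0.454 against 0.111 to 0.119 between the others. Levels followed gene length in those libraries: long genes against short genes stood at −0.57 and −0.88 log2 units in Veh 3 and rhWnt3a 2 and at 0.89 in rhWnt3aOSMI 3, against −0.07 to 0.12 in the remaining libraries. Fits that leave out these 3 libraries have a smaller spread by that choice, so their adjusted p values are small for that reason as well. The part of these differences in the results below was not tested beyond the values given. Of 7 stromal markers 6 were abundant and Thy1 had 0 to 4 counts, while 3 of 5 fat cell markers (Adipoq, Plin1 and Cidec), 3 of 5 blood cell markers (Ptprc, Adgre1 and Cd3e) and 2 of 4 endothelial markers (Cdh5 and Kdr) had no more than 3 counts in any library. Summed over their markers, blood cells stayed at 0.350 to 1.92 CPM and endothelium at 0.243 to 1.28 CPM. The 6 cartilage markers summed to 427 to 571 CPM with vehicle, 95.1 to 122 with rhWnt3a and 80.8 to 131 with OSMI added, and the 5 fat cell markers to 42.0 to 50.8, 10.3 to 13.0 and 11.7 to 14.4 CPM.

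A gene is called changed here where its adjusted p in edgeR's quasi-likelihood test was under 0.05 and its log2 fold change beyond 0.5 in size. With rhWnt3a against vehicle, 1 of the 6 tested IGF genes was called, Igfbp4, which was higher, beside 8.78% of all tested genes. With OSMI added to rhWnt3a, Igf1 and Igfbp4 were called, both lower, against rhWnt3a alone, beside 4.74% of all tested genes. With rhWnt3a and OSMI against vehicle, Igf1 was lower and Igf1r higher, 2 of 6 beside 14.2% of all tested genes. Each pair of these comparisons shares 1 group of libraries, so they are not independent of each other. CPM values of the 3 libraries did not overlap between the groups for 3, 4 and 4 of the 6 genes in the 3 comparisons in that order, beside 26.4%, 33.7% and 38.8% of all tested genes. With 3 libraries against 3, an exact permutation test of a single gene cannot give a p under 0.1. Each call therefore rests on the model of edgeR, in which the spread of a gene is drawn toward that of all genes.

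**Figure D1:**
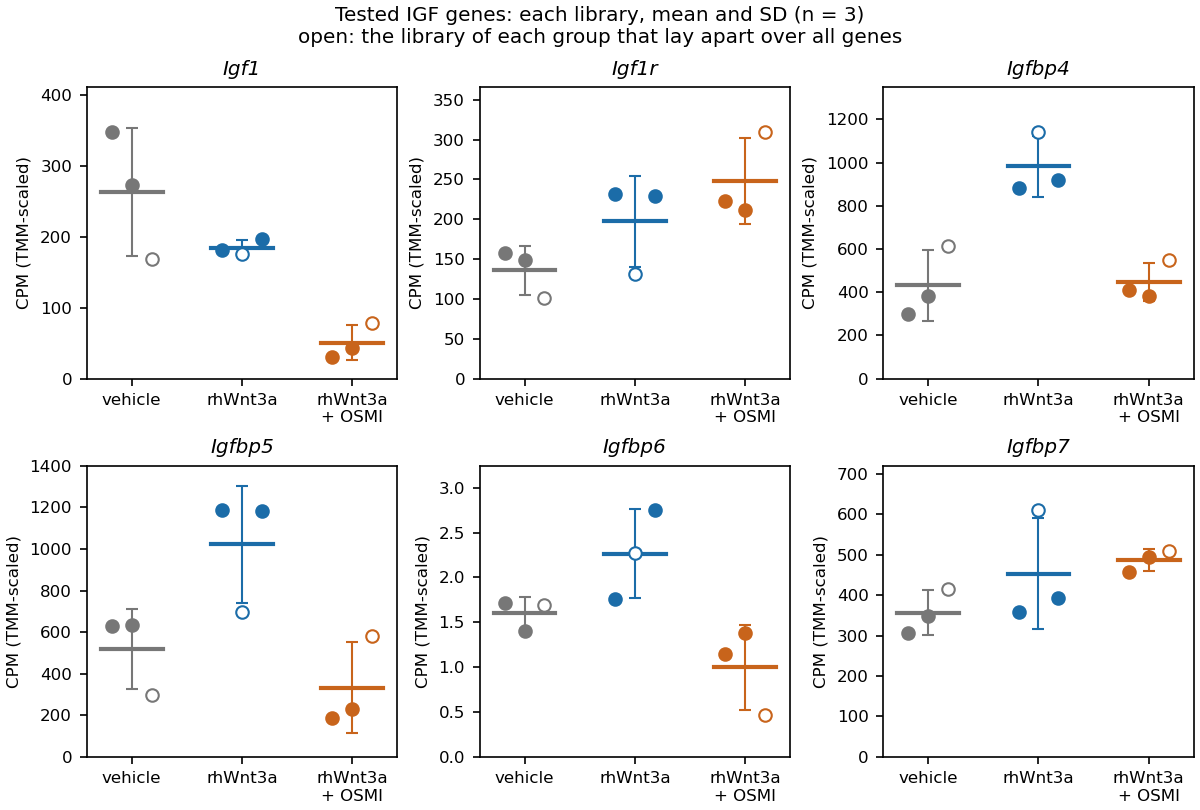
Level in CPM (counts over the TMM-scaled library total, linear axes from 0) of the 6 tested IGF genes in each library, with the mean and SD of each group (n = 3). Open points are Veh 3, rhWnt3a 2 and rhWnt3aOSMI 3, the library of each group that lay apart over all genes. Igf1 lay at 78.3 CPM or less in the 3 libraries with OSMI and at 169 CPM or more in the other libraries, and Igfbp4 was at 884 CPM or more with rhWnt3a alone and at 616 CPM or less elsewhere.

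Igf1 (ENSMUSG00000020053, chromosome 10, 87858265 to 87937042 on the plus strand of GRCm38) encodes the ligand that bone cells secrete and to which IGF1R responds. Its level, in counts scaled by library total (CPM), was 348, 273 and 169 in the 3 vehicle libraries, 181, 175 and 197 CPM with rhWnt3a, and 30.8, 43.0 and 78.3 CPM with OSMI added. Every library with OSMI was thus below every other library, while the rhWnt3a libraries lay inside the range of the vehicle libraries.

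With OSMI added, Igf1 fell by 1.86 on the log2 scale against rhWnt3a alone (SE 0.34, 3.64-fold, adjusted p = 0.0166). Against vehicle it fell by 2.38 (SE 0.35, 5.19-fold, adjusted p = 0.00174). With rhWnt3a alone the log2 fold change was −0.51 (95% confidence interval −1.26 to 0.23, adjusted p = 0.479), which did not pass the test. The fall against vehicle was called in 21 of 21 alternative analyses, with adjusted p up to 0.0137. The fall against rhWnt3a was called in 16 of 21, with adjusted p from 5.18e-11 to 0.0856, and was not called without rhWnt3a 1, rhWnt3a 3, rhWnt3aOSMI 1 or rhWnt3aOSMI 2. With the library that lay apart left out of each group, the log2 fold changes with OSMI were −2.36 against rhWnt3a and −3.11 against vehicle, and that of rhWnt3a against vehicle was −0.75 (adjusted p = 2.00e-05), which was then called. In bulk RNA, fewer cells that express a gene and less of its RNA per cell cannot be told apart. The summed level of the 7 stromal markers, 22837 to 30375 CPM with vehicle and 18335 to 21232 CPM with rhWnt3a, was 9671 to 17269 CPM with OSMI, and its part in the Igf1 result was not tested. Of the 7, the collagen genes Col1a1 and Col1a2 had the highest counts, up to 183214 and 161084, so the sum does not measure a number of cells.

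Igf2 (ENSMUSG00000048583, chromosome 7, 142650766 to 142666816, minus strand), the ligand best known from fetal growth, was barely detected, with 1 count in the 9 libraries together, in Veh 1. A level of 3 counts, the upper limit that a count of 0 allows, is 0.170 to 0.191 CPM at this depth and covers counting error only. Gm49394 shares 76.2% of the longest Igf2 transcript and overlaps 16048 bases of the gene on the same strand, so that reads could be lost between them. Gm49394 itself had 0 counts in every library, which such a loss would also give. The Igf2 count and the limit above may therefore understate its RNA, which was not tested. H19 and Igf2os, the noncoding neighbours of Igf2, were also too low to be tested.

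Igf1r (ENSMUSG00000005533, chromosome 7, 67952827 to 68233668, plus strand) encodes the receptor through which both ligands signal. It stood at 158, 149 and 101 CPM with vehicle, 231, 132 and 229 CPM with rhWnt3a, and 222, 212 and 310 CPM with OSMI added. All libraries with OSMI were above all vehicle libraries, and the rhWnt3a libraries overlapped both groups. Igf1r rose with rhWnt3a and OSMI against vehicle by a log2 fold change of 0.87 (SE 0.26, 1.83-fold, adjusted p = 0.0490). That call was close to the threshold: it held in 8 of 21 alternative analyses, with adjusted p from 9.45e-06 to 0.125, and in 1 of the 9 that left out a library, the one without rhWnt3a 2. With the library that lay apart left out of each group, the log2 fold change was 0.46, under the threshold of 0.5, at the lowest of these adjusted p. Against vehicle, rhWnt3a alone gave a log2 fold change of 0.54 (95% confidence interval −0.04 to 1.11, adjusted p = 0.292), and OSMI against rhWnt3a gave 0.33 (−0.24 to 0.91, adjusted p = 0.460). Neither passed the test, and the latter was −0.088 when the library that lay apart was left out of each group.

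**Figure D2:**
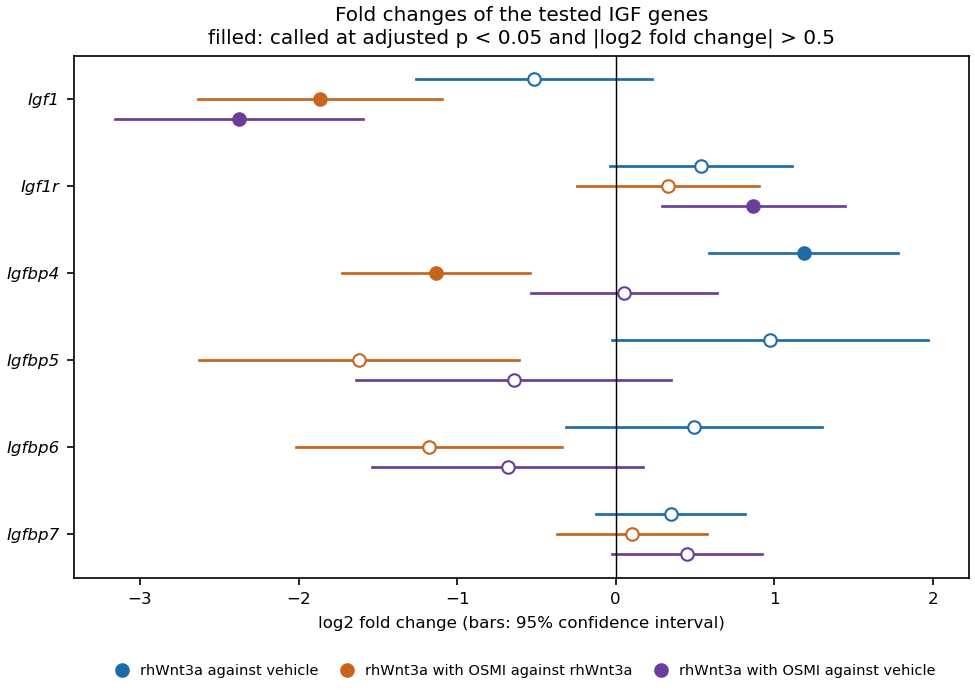
Log2 fold changes (horizontal axis) of the 6 tested IGF genes in the 3 comparisons, with bars for the 95% confidence interval from the fit on 9 libraries. Filled points were called: Igfbp4 at 1.19 with rhWnt3a and −1.13 with OSMI added, Igf1 at −1.86 and −2.38 with OSMI against rhWnt3a and against vehicle, and Igf1r at 0.87 against vehicle.

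Igfbp4 (ENSMUSG00000017493, chromosome 11, 99041244 to 99054392, plus strand) encodes the binding protein known for holding IGFs away from the receptor. Its level was 298, 381 and 616 CPM with vehicle, 884, 1143 and 918 CPM with rhWnt3a, and 412, 382 and 547 CPM with OSMI added. The 3 rhWnt3a libraries were above the other 6, and the vehicle and OSMI libraries overlapped.

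The 250 bases before the RefSeq start of Igfbp4 (GRCm38.p6), the member called both with rhWnt3a and with OSMI added to it, are printed 5′ to 3′ along the gene to show what lies at its start. Capitals mark matches, searched on both strands, to CTTTGAT or CTTTGAA, the letters bound by the Wnt effectors TCF and LEF, and to TATAAA, the TATA box.
Igfbp4, chr11:99040994-99041243, plus strand: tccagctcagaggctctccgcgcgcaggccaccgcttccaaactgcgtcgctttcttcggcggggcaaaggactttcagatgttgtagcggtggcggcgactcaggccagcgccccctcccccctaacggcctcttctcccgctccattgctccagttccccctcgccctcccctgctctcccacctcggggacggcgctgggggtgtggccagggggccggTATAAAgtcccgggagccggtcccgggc

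In this window, with 69.2% G or C, TATAAA stood 28 to 23 bases before the start, and neither TCF and LEF sequence was present. Of all 32851 windows of this length, 7.48% held CTTTGAT or CTTTGAA and 12.4% held TATAAA, so a match describes the letters only. Among the other tested members, the Igf1 window held CTTTGAA and the Igfbp6 window TATAAA on the opposite strand, and those of Igf1r, Igfbp5 and Igfbp7 held none of the 3 sequences. The RefSeq start of Igf1 lies 2846 bases inside the gene as GENCODE M21 draws it, and its window overlaps exons of 2 of the 8 annotated transcripts, so it is not printed. GENCODE M21 lists 6 transcripts of Igfbp4, and the counts do not separate them.

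Igfbp4 rose with rhWnt3a by a log2 fold change of 1.19 (SE 0.27, 2.27-fold, adjusted p = 0.0205), and with OSMI added it fell by 1.13 on the log2 scale (SE 0.27, 2.20-fold, adjusted p = 0.0413). Against vehicle, the group with both agents gave a log2 fold change of 0.05 (95% confidence interval −0.53 to 0.64, adjusted p = 0.917). The rise was called in 17 of 21 alternative analyses, with adjusted p from 2.39e-10 to 0.0979, and was not called without Veh 1, Veh 2, rhWnt3a 2 or rhWnt3a 3. The fall was called in 13 of 21, with adjusted p from 4.51e-09 to 0.145, and in 3 of the 9 that left out a library. It was not called without Veh 2, any of the rhWnt3a libraries, rhWnt3aOSMI 1 or rhWnt3aOSMI 2. Both kept their direction in every alternative. With the library that lay apart left out of each group, the log2 fold changes were 1.37 and −1.19. The log2 fold change of both agents against vehicle became −0.13 without Veh 1 and −0.12 without rhWnt3aOSMI 3. Gm48701 and Pqlc1 share 5.35% of the longest Igfbp4 transcript at 97% identity or more, so few of its reads could be placed elsewhere. The 6 markers of cell division moved against Igfbp4, with a summed level of 56.3 to 82.2 CPM with vehicle, 28.2 to 35.0 with rhWnt3a and 50.6 to 105 with OSMI added, and their part in the result was not tested. One of them, Top2a, is the neighbour of Igfbp4 on the opposite strand, 17054 bases away.

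Igfbp5 (ENSMUSG00000026185, chromosome 1, 72857932 to 72874884, minus strand), the binding protein stored with IGFs in bone matrix, had a like order of group means but a wider spread. It was at 628, 635 and 298 CPM with vehicle, 1188, 698 and 1183 CPM with rhWnt3a, and 186, 230 and 583 CPM with OSMI added. Every rhWnt3a library was above every library of the other groups, and within each group the library that lay apart in the whole data also lay apart in Igfbp5. The log2 fold change was 0.98 with rhWnt3a (95% confidence interval −0.02 to 1.97, adjusted p = 0.263) and −1.62 with OSMI added (−2.63 to −0.61, adjusted p = 0.0736), and neither was called. Against vehicle, both agents gave −0.64 (−1.64 to 0.35, adjusted p = 0.360). The difference with OSMI added was called in 6 of 21 alternative analyses, with adjusted p from 1.78e-13 to 0.193, the lowest with the libraries that lay apart left out. Leaving out rhWnt3aOSMI 3 alone gave a log2 fold change of −2.30 against rhWnt3a (adjusted p = 0.00929) and of −1.32 against vehicle (adjusted p = 0.0381), both called. With the library that lay apart left out of each group, both agents against vehicle gave −1.64 (adjusted p = 5.45e-12), and rhWnt3a against vehicle 0.87 (adjusted p = 3.62e-08), again called.

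Igfbp7 (ENSMUSG00000036256, chromosome 5, 77349240 to 77408041, minus strand) encodes a secreted protein related to the others that binds IGFs weakly. It measured 306, 348 and 415 CPM with vehicle, 357, 611 and 392 CPM with rhWnt3a, and 457, 493 and 510 CPM with OSMI added. The libraries with OSMI were all above those with vehicle, and the rhWnt3a libraries reached from within the vehicle range to above the OSMI range. No comparison was called: the log2 fold change was 0.35 with rhWnt3a (95% confidence interval −0.12 to 0.82, adjusted p = 0.441), 0.10 with OSMI added (−0.37 to 0.57, adjusted p = 0.795) and 0.45 with both agents against vehicle (−0.02 to 0.92, adjusted p = 0.185). The last was called in 2 of 21 alternative analyses, 1 of them the fit with the length trend removed. Polr2b, on the opposite strand, overlaps 85 bases of the Igfbp7 gene and had 1092 to 1538 counts, and whether counting used strand is not given in the sources used here.

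Igfbp6 (ENSMUSG00000023046, chromosome 15, 102144362 to 102149511, plus strand), a binding protein that prefers IGF2, was low, with 28, 22 and 30 counts with vehicle, 29, 40 and 46 with rhWnt3a and 19, 24 and 8 with OSMI added. In CPM these were 1.71, 1.40 and 1.70, then 1.76, 2.27 and 2.75, then 1.15, 1.38 and 0.466. The groups did not overlap in any comparison, with rhWnt3a highest and OSMI lowest, but none was called by edgeR. The log2 fold change was 0.50 with rhWnt3a (adjusted p = 0.547), −1.18 with OSMI added (95% confidence interval −2.02 to −0.34, adjusted p = 0.107) and −0.68 with both agents against vehicle (adjusted p = 0.263). The difference with OSMI added was called in 2 of 20 alternative analyses, DESeq2 (−1.18, adjusted p = 0.0399) and the one at an unadjusted p.

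Igfbp2 (ENSMUSG00000039323, chromosome 1, 72824503 to 72852474, plus strand), a binding protein abundant in the circulation, had 1 count in each vehicle library, 9 in each rhWnt3a library, and 0, 3 and 0 with OSMI added. The rhWnt3a libraries were above the others, at 0.512 to 0.548 CPM, a level of few reads that did not pass the count filter. Scaled for library size, the ratio of the 27 counts with rhWnt3a to the 3 with vehicle was 8.82 (exact 95% interval 2.72 to 45.4), and to the 3 with OSMI 9.07 (2.79 to 46.7). These intervals cover counting error only, and in a fit without the filter the adjusted p was 0.0699 and 0.0609. Igfbp2 and Igfbp5 lie tail to tail on chromosome 1 with 5457 bases between them, and reads past the end of Igfbp5, which had up to 19781 counts, were not examined as a source of these few reads.

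Igfbp3 (ENSMUSG00000020427, chromosome 11, 7206086 to 7213923, minus strand), the main carrier of IGF1 in blood, had 0 counts in every vehicle library, 1 in each rhWnt3a library, and 0, 0 and 2 with OSMI. No library reached more than 3 counts, so no fold is given. Igfbp1, 3539 bases away, had 0 counts in every library.

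Per length, in FPKM as deposited, the group means of the IGF genes kept nearly the same order in each group. Igfbp7 was highest, with 291 ± 41.8 FPKM with vehicle, 368 ± 115 with rhWnt3a and 396 ± 28.1 with OSMI added (SD, n = 3). Igfbp4 followed with 96.2 ± 35.7, 218 ± 33.4 and 99.8 ± 21.7 FPKM, and Igfbp5 with 85.7 ± 32.3, 167 ± 44.6 and 55.0 ± 37.0 FPKM. The FPKM ranges of these 2 neighbours overlapped in the vehicle and OSMI groups and did not overlap with rhWnt3a, where the lowest Igfbp4 library was at 195 and the highest Igfbp5 library at 193 FPKM. Within a library, Igfbp4 was above Igfbp5 in all 3 libraries with rhWnt3a and all 3 with OSMI. With vehicle it was below Igfbp5 in Veh 1 (67.2 against 104 FPKM) and Veh 2 (85.2 against 105 FPKM). It was above only in Veh 3 (136 against 48.4 FPKM), the library that lay apart.

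The ligand and its receptor changed places. Igf1 was at 26.3 ± 9.24 FPKM with vehicle and 18.2 ± 1.0 with rhWnt3a, above Igf1r at 8.0 ± 1.86 and 11.5 ± 3.23 FPKM, and the libraries of the 2 genes did not overlap in either group. With OSMI, Igf1 was at 5.07 ± 2.57 FPKM and Igf1r at 14.6 ± 3.46, and here each library had Igf1r above Igf1. Igfbp6 was the lowest of the tested genes, at 1.42 ± 0.155, 1.99 ± 0.433 and 0.877 ± 0.407 FPKM.

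The 6 binding proteins together summed to 474 ± 47.9 FPKM with vehicle, 755 ± 105 with rhWnt3a and 552 ± 83.4 with OSMI added. The rhWnt3a libraries, at 678 to 874 FPKM, were above the 426 to 521 FPKM of the vehicle libraries and above the 490 to 647 FPKM of those with OSMI. Igfbp7 made up a mean of 61.2% of the sum with vehicle, 48.0% with rhWnt3a and 72.3% with OSMI. The means of Igfbp4 were 19.9%, 28.8% and 18%, and those of Igfbp5 18.6%, 22.8% and 9.48%. In the same order, Igfbp7 shares ran from 59.3 to 64.3%, 42.5 to 57.2% and 65.6 to 76.4%. Those of Igfbp4 ran from 15.8 to 26.1%, 28.4 to 29.3% and 16.2 to 19.3%. Igfbp5 shares, at 9.29 to 24.5%, 13.2 to 28.4% and 6.17 to 15.1%, overlapped between all groups. In rhWnt3a 2, which lay apart, Igfbp7 was at 57.2% and Igfbp5 at 13.2%. The ratio of Igfbp4 to Igf1 FPKM was 1.92, 3.13 and 8.17 in the vehicle libraries, 11.0, 14.6 and 10.4 with rhWnt3a, and 30, 19.9 and 15.7 with OSMI added. The 3 groups did not overlap in this ratio, which was computed after the values of both genes had been seen and was not tested.

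**Figure D3:**
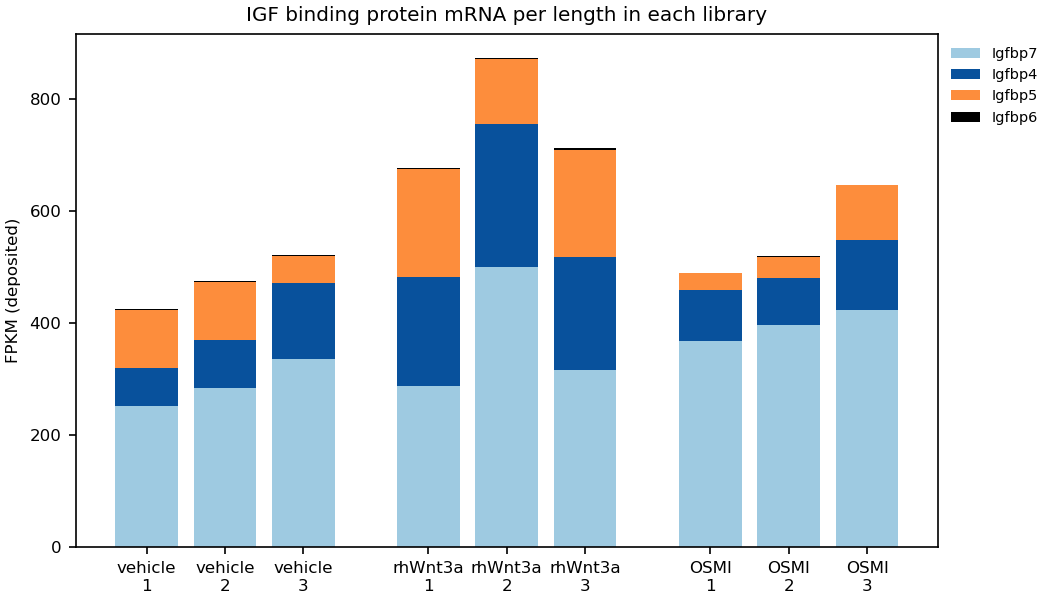
FPKM (linear axis from 0) of Igfbp7, Igfbp4, Igfbp5 and Igfbp6 stacked for each of the 9 libraries, with OSMI standing for rhWnt3a and OSMI. The stacks reach 678 to 874 FPKM with rhWnt3a, 426 to 521 with vehicle and 490 to 647 with OSMI, and Igfbp7 is the largest share in every library.

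Of 42 other genes of the IGF pathway, listed by role, 33 could be tested. With rhWnt3a against vehicle 3 rose and 4 fell, 21.2% beside the 8.78% of all tested genes, with a median log2 fold change of 0.06 against 0.04 over all tested genes. With OSMI added to rhWnt3a 1 rose and 5 fell, 18.2% beside 4.74%, with a median of 0.11 against −0.01. With both agents against vehicle 3 rose and 5 fell, 24.2% beside 14.2%, with a median of 0.22 against −0.01. The 7 calls with rhWnt3a became 1 without Veh 2, 2 without Veh 1 or rhWnt3a 1 and 3 without rhWnt3a 3, and the 8 with both agents became 3 without Veh 1. Calls over all genes also became fewer when these libraries were left out. The 1230 with rhWnt3a became 717 without Veh 2, 761 without Veh 1, 716 without rhWnt3a 1 and 724 without rhWnt3a 3. The 1986 with both agents became 1218 without Veh 1.

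Among the 7 tested genes for proteases that cut binding proteins and for their inhibitors, 4 fell when OSMI was added and none rose, 57.1% beside 4.74% of all tested genes. The list was chosen with earlier results of these data known, so its shares are a description and not a test. With rhWnt3a against vehicle 2 rose and 1 fell, 42.9% beside 8.78%, and with both agents against vehicle 2 fell, 28.6% beside 14.2%. Htra3, a secreted serine protease, was at 9.47, 10.6 and 6.84 CPM with vehicle, 20.1, 22.5 and 24.9 with rhWnt3a and 6.23, 6.60 and 10 with OSMI added, so that the rhWnt3a libraries were above all others. It rose by a log2 fold change of 1.33 with rhWnt3a (SE 0.23, adjusted p = 0.00494) and fell by 1.56 with OSMI added (SE 0.23, adjusted p = 0.00619), each in 21 of 21 alternatives.

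Its relative Htra1, known to cut IGFBP5, had the same order of groups. It measured 77.1, 79.1 and 107 CPM with vehicle, 127, 170 and 129 with rhWnt3a, and 51.9, 54.2 and 64.5 with OSMI added. Htra1 rose by a log2 fold change of 0.70 with rhWnt3a (SE 0.18, adjusted p = 0.0356, called in 11 of 21 alternatives and, of those that left out a library, only without Veh 3 or rhWnt3aOSMI 3) and fell by 1.32 with OSMI added (SE 0.18, adjusted p = 0.00452, called in 21 of 21). It was lower than with vehicle as well, by a log2 fold change of −0.62 (SE 0.18, adjusted p = 0.0404, called in 9 of 21 and, with a library left out, only without rhWnt3a 2 or rhWnt3aOSMI 3).

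Pappa encodes PAPP-A, the protease that cuts IGFBP4. Its level was 114, 113 and 82.8 CPM with vehicle, 94.4, 39.3 and 102 CPM with rhWnt3a, and 21.3, 19.7 and 28.5 CPM with OSMI added, where it was below all other libraries, as Igf1 was. Pappa fell by 1.76 on the log2 scale with OSMI added (SE 0.33, adjusted p = 0.0166, called in 17 of 21 alternatives, not without rhWnt3a 1, rhWnt3a 3, rhWnt3aOSMI 1 or rhWnt3aOSMI 2). Against vehicle it fell by 2.16 (SE 0.33, adjusted p = 0.00208, called in 21 of 21). With rhWnt3a alone its log2 fold change was −0.40 (adjusted p = 0.589).

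Pappa2, which encodes the protease of IGFBP3 and IGFBP5, was the one of this list that fell with rhWnt3a, from 801, 814 and 336 CPM to 177, 66.1 and 163 CPM, and it was at 172, 184 and 367 CPM with OSMI added. The rhWnt3a libraries were below all vehicle libraries, by a log2 fold change of −2.26 (SE 0.47, adjusted p = 0.0141, called in 19 of 21 alternatives, not without Veh 1 or Veh 2). Adamts1, a secreted metalloprotease of the matrix, fell by 0.94 on the log2 scale with OSMI added (SE 0.23, adjusted p = 0.0462), a call that held in 7 of 21 alternatives and in 1 of the 9 that left out a library, the one without rhWnt3aOSMI 3.

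**Figure D4:**
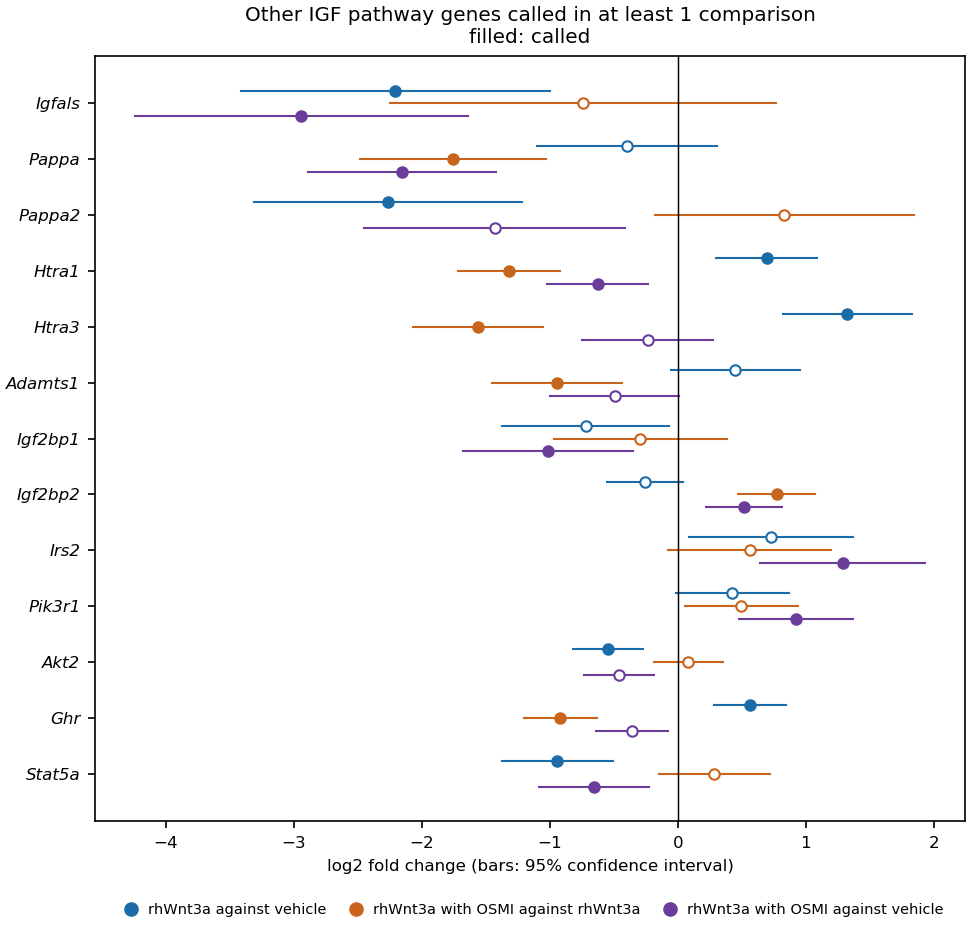
Log2 fold changes (horizontal axis, bars for the 95% confidence interval) of the 13 other IGF pathway genes called in at least 1 comparison, in all 3 comparisons, with called values filled. Htra1 and Htra3 lie to the right of 0 with rhWnt3a, at 0.70 and 1.33, and to the left with OSMI added, at −1.32 and −1.56.

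Growth hormone acts on bone cells through its receptor GHR and STAT5, a known input to Igf1. Ghr was at 133, 106 and 105 CPM with vehicle, 173, 164 and 171 with rhWnt3a, and 87.7, 89.0 and 92.0 with OSMI added, and the 3 groups did not overlap. It rose by a log2 fold change of 0.56 with rhWnt3a (SE 0.13, adjusted p = 0.0202, called in 13 of 21 alternatives, not without Veh 2, rhWnt3a 1 or rhWnt3a 3) and fell by 0.92 with OSMI added (SE 0.13, adjusted p = 0.00503, called in 20 of 21). Stat5a fell with rhWnt3a by 0.94 on the log2 scale (SE 0.19, adjusted p = 0.0135, called in 16 of 21, not without Veh 1, Veh 2 or rhWnt3a 1) and was lower than vehicle with both agents, by a log2 fold change of −0.66 (SE 0.19, adjusted p = 0.0466, called in 9 of 21 and, with a library left out, only without Veh 3, rhWnt3a 2 or rhWnt3aOSMI 3). Stat5b, which shares 12.6% of the longest Stat5a transcript at 97% identity or more, was not called in any comparison.

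Below the receptor, 15 of 16 genes could be tested, of which 1, 0 and 2 were called in the 3 comparisons. These are 6.67%, 0% and 13.3%, beside 8.78%, 4.74% and 14.2% of all tested genes. On 15 genes, these shares do not set the list apart. CPM did not overlap between the groups for 4, 6 and 10 of the 15, beside 26.4%, 33.7% and 38.8% of all tested genes. Irs2, an adaptor that binds the activated receptor, was at 40.6, 41.2 and 26.9 CPM with vehicle, 72.7, 34.5 and 72.4 CPM with rhWnt3a, and 80.9, 77.1 and 107 CPM with OSMI added. It rose with both agents against vehicle by a log2 fold change of 1.29 (SE 0.29, adjusted p = 0.0155, called in 21 of 21 alternatives). Pik3r1, the regulatory subunit of PI3-kinase, rose in the same comparison by 0.92 (SE 0.20, adjusted p = 0.0125, called in 19 of 21, not without Veh 1). In both, the 3 libraries with OSMI were above all vehicle and all rhWnt3a libraries. OSMI against rhWnt3a was nevertheless not called for either gene, nor in any of 21 alternatives. Those log2 fold changes were 0.56 for Irs2 (adjusted p = 0.272) and 0.50 for Pik3r1 (adjusted p = 0.177). For rhWnt3a alone against vehicle, also not called, they were 0.73 (adjusted p = 0.183) and 0.43 (adjusted p = 0.270). These were called in 4 and 1 of 21 alternatives. Akt2, a kinase further down, fell with rhWnt3a by 0.54 on the log2 scale (SE 0.12, adjusted p = 0.0204, called in 14 of 21, not without Veh 1, Veh 2, rhWnt3a 1 or rhWnt3a 3), and the pseudogene Akt2-ps shares 31.8% of its longest transcript.

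Igfals encodes the carrier that holds IGFs and binding proteins together in blood. It had few reads, 91 counts over the vehicle libraries, 20 with rhWnt3a and 12 with OSMI added. Its log2 fold change was −2.20 with rhWnt3a (SE 0.54, adjusted p = 0.0312, called in 13 of 20 alternatives and in 3 of the 9 that left out a library, those without Veh 3, rhWnt3aOSMI 2 or rhWnt3aOSMI 3) and −2.94 with both agents against vehicle (SE 0.58, adjusted p = 0.00825, called in 20 of 20). The receptors Igf2r and Insr were not called in any comparison.

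Of the RNA-binding proteins named for Igf2 mRNA, Igf2bp2 rose with OSMI added by a log2 fold change of 0.77 (SE 0.13, adjusted p = 0.0123, called in 19 of 21 alternatives) and against vehicle by 0.51 (SE 0.13, adjusted p = 0.0286, called in 11 of 21 and not without Veh 1, Veh 2 or any of the libraries with OSMI). Igf2bp2 stood at 120, 129 and 129 CPM with vehicle, 115, 87.7 and 113 with rhWnt3a, and 179, 172 and 188 with OSMI added, where each library was above all others. Igf2bp1, at 1.88 to 5.99 CPM over the 9 libraries, fell with both agents against vehicle by 1.01 on the log2 scale (SE 0.30, adjusted p = 0.0460, called in 11 of 21, and, with a library left out, only without Veh 3 or rhWnt3a 2).

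Likeness of pattern was measured over the 9 libraries as the root mean square difference between log2 CPM values, each gene centred on its own mean, among 11575 genes with an average log2 CPM above 1. The genes most like Igfbp4 were Itih2, Mex3b and Medag, at 0.240, 0.242 and 0.246 log2 units. Those most like Igf1r were Gli3, Limk1 and Tmem104, at 0.0772, 0.10 and 0.107. For Igf1, added after its values had been seen, they were Gpr153, Cd248 and Adamts4, at 0.228, 0.250 and 0.278. Libraries of a group and the length trend are shared by all genes compared, so these values describe the 9 libraries only.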

How the data were processed

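The authors sequenced messenger RNA of ST2 cells and deposited 1 table of read counts per gene, left without normalization, and of FPKM, counts scaled by gene length and library total. Per the labels' processing notes, the tools were CASAVA, fastp, HISAT2 2.0.5 and featureCounts 1.5.0-p3 with mm10, and the role of strand in counting and the annotation release are not given in the sources used here. All 9 members have the same coordinates in the table and in GENCODE M21 (GRCm38). The 15 columns of the authors' own comparisons (fold changes and p-values) were not used.

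Counts of all 9 libraries were fitted on the 3 groups, without covariates, in edgeR 4.0.16 under R 4.3.3 (filterByExpr with minimum count 10 and minimum total 15, TMM, glmQLFit, two-sided glmQLFTest), with Benjamini-Hochberg adjustment over all 14004 genes tested. The spread exceeded counting error (common dispersion 0.0452). A level of 3 counts was taken as the floor. CPM was scaled by TMM, with 2 added as prior count on the log2 scale. The script was tested on simulated data. Alternatives were other scalings, filters, thresholds, DESeq2 1.42.0, the 6 libraries compared, a replicate block, each library left out, and the library that lay apart left out of each group. Removal of a trend with gene length (lowess offsets, span 0.3) was added after seeing the data. Same-numbered libraries deviated together with mean correlations of −0.18, 0.13 and −0.31, so the numbers were not used to pair them. Near-identical transcripts (97% over 100 bases) were sought with BLAST 2.17.0.

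The members and the pathway and marker lists were chosen with earlier results of these data known. Named were all members, pathway genes called in any comparison, genes most like the 2 called members of highest CPM, and neighbours or overlapping genes.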

Additional observations from a re-analysis of the deposited data

How the results depend on the processing

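For Igf1 and Igfbp4 the direction of each called difference was the same in all 21 alternatives. Values whose sign turned, none of them called, were Igf1r with OSMI against rhWnt3a (−0.088 with the libraries that lay apart left out), Igfbp7 in the same comparison (−0.036 without rhWnt3a 1, in a range up to 0.40 with each library left out), Akt2 in the same comparison (−0.046 with the length trend removed, an alternative chosen after seeing the data) and Igfbp4 with both agents against vehicle (−0.13 without Veh 1, −0.12 without rhWnt3aOSMI 3, in a range up to 0.40). The cause was not tested here or for the counts below.

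Of the IGF genes, 1 was called with rhWnt3a against vehicle, and 2 without the count filter, 4 with the libraries that lay apart left out, and 0 to 1 with each library left out (0 without Veh 1, Veh 2, rhWnt3a 2 or rhWnt3a 3). With OSMI against rhWnt3a, 2 were called, and 1 with total counts unscaled, 4 in DESeq2, 4 at an unadjusted p under 0.05, 0 with the replicate block and 0 to 3 with each library left out (0 without rhWnt3a 1, rhWnt3a 3, rhWnt3aOSMI 1 or rhWnt3aOSMI 2, and 1 without Veh 2 or rhWnt3a 2). With both agents against vehicle, 2 were called, and 1 with RLE scaling, 1 with at least 10 counts in every library, 1 at a log2 threshold of 1, 1 with the replicate block and 1 to 2 with each library left out.

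Of the other pathway genes, 7 were called with rhWnt3a against vehicle, and 3 at a log2 threshold of 1, 2 with the replicate block, 12 with the libraries that lay apart left out and 1 to 8 with each library left out. With OSMI against rhWnt3a, 6 were called, and 3 at a log2 threshold of 1. With both agents against vehicle, 8 were called, and 5 with at least 10 counts in every library, 5 with the 6 libraries of the groups compared, 4 at a log2 threshold of 1, 4 with the replicate block, 13 with the libraries that lay apart left out and 3 to 10 with each library left out (3 without Veh 1). Of 3 pairs of same-numbered libraries, 1, 2 and 0 had a correlation over 0.1 in the 3 comparisons. The highest correlations were 0.44, 0.37 and −0.20. Whether same-numbered libraries share a culture or a batch is not given by the labels, and these values cannot tell.

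Over all genes the counts of 1230, 664 and 1986 became 809, 233 and 1297 with the replicate block, 2557, 1789 and 3351 with the libraries that lay apart left out, 796, 380 and 1118 at a log2 threshold of 1, and 2155, 2271 and 3186 at an unadjusted p under 0.05. Each library left out gave 716 to 1506, 203 to 764 and 1218 to 2328. For OSMI against rhWnt3a there were 1481 without the count filter, 1289 in DESeq2 and 345 with the 6 libraries compared. With total counts unscaled, 329 genes were higher and 353 lower with OSMI against rhWnt3a (237 and 427 with TMM), and 957 and 1179 against vehicle (678 and 1308 with TMM). Igf2, Igfbp2 and Igfbp3 did not pass the count filter and were not tested with the other genes.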
